A study of Mus musculus with 6 samples.

Results

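Matrix metalloproteinases are zinc-dependent endopeptidases that cut collagens, fibronectin, laminins and other proteins of the extracellular matrix. The 10 genes described here, Mmp2, Mmp3, Mmp9, Mmp10, Mmp11, Mmp13, Mmp14, Mmp15, Mmp19 and Mmp23, were taken by name from a table of 27366 features measured by RNA sequencing in cultured satellite cells, which are the muscle stem cells of the mouse. All 10 were found, each in 1 row. The members were chosen by an earlier look at their scaled reads in these libraries, paired by replicate number, control against Islr knockout, so for these genes that comparison is a description. Where fits across all features are reported, the number of members called is given beside the share of all features called, and nothing is read from it. A further 11 Mmp genes had a row in the table and were not on the list.

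The 6 libraries came from total RNA of cells from mouse skeletal muscle, held in growth culture with fetal bovine serum and basic FGF and labelled day 4. The labels give 3 libraries the genotype control and 3 the genotype ko, titled Islr-Knockout, numbered 1 to 3 in each group. The series design speaks of flow sorting by presence or absence of Islr, a gene for a secreted leucine-rich repeat protein. The labels used here give no strain, age, sex, deleted region or Cre driver and do not say whether libraries came from separate animals or cultures, so the spread between libraries may be partly technical.

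Most of these enzymes leave the cell as inactive precursors, which plasmin, furin-like proteases or other metalloproteinases activate, and which tissue inhibitors of metalloproteinases (Timp proteins) block. Mmp2 and Mmp9 are the gelatinases, Mmp3 and Mmp10 the stromelysins, Mmp13 a collagenase, and Mmp14 and Mmp15 are anchored in the cell membrane. In muscle, matrix proteases are known for opening the basal lamina around satellite cells and for remodelling matrix after injury. Transcription of several of them is known to respond to growth factors and cytokines through AP-1 factors, which are dimers of Fos and Jun proteins.

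Libraries held 16456917 to 20531276 reads, and values below are reads divided by the size factor of each library (scaled reads) unless FPKM, a level per transcript length and library depth, is named. The targeted gene did not separate the labelled groups. For libraries labelled control 1, 2 and 3, Islr gave 181.1, 12.8 and 1579 scaled reads; for those labelled knockout it gave 256.7, 7.4 and 10.9. Islr knockout 1 held more than 2 of the controls and thus goes against its label, so every group named below means libraries labelled that way. The control 1 column carries a number with 2 digits exchanged against its label. Markers of satellite cells and myoblasts (Pax7, Myf5, Myod1, Cdh15, Itga7, Vcam1 and Des) had reads in all 6 libraries, with a summed level between 56923 and 136501. In control 1, the highest sum, most of it was Des (76325), Itga7 (26332) and Myod1 (24224). Pax7 (1233 there) and Myf5 (1641) were instead highest in control 2. Markers of muscle differentiation ranged far more widely, from a sum of 2748 in control 2 to 334416 in control 1.

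Promoter sequences are shown first. Those of Mmp13, Mmp3 and Mmp10, which lie in one cluster on chromosome 9, share a short motif. Whether it bears on the levels of these genes was not tested. The sequences are the 300 bases from 250 before to 50 after the RefSeq start site on GRCm38.p6, written 5′ to 3′ on the strand of the gene, with each match to the AP-1 motif in capitals. Mmp14, the most abundant member in 5 of 6 libraries, is shown beside them. The windows are chr9:7272264-7272563 for Mmp13, chr9:7445572-7445871 for Mmp3, chr9:7502092-7502391 for Mmp10 and chr14:54431348-54431647 for Mmp14, all on the plus strand.
Mmp13: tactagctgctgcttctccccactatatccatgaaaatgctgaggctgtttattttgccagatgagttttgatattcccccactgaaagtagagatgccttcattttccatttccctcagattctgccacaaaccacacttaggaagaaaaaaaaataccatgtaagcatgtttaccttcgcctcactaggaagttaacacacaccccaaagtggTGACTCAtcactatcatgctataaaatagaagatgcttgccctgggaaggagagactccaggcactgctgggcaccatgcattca
Mmp3: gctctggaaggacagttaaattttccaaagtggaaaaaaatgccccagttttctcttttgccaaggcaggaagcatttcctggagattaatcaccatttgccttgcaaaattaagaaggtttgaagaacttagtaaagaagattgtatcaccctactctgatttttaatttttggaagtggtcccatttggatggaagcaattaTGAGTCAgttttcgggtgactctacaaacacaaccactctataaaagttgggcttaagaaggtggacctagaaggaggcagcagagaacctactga
Mmp10: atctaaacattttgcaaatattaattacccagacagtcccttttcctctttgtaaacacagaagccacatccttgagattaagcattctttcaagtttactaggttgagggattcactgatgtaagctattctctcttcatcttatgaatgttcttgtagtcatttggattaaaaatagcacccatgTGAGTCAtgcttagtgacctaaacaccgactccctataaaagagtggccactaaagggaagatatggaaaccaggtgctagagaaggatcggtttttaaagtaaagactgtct
Mmp14: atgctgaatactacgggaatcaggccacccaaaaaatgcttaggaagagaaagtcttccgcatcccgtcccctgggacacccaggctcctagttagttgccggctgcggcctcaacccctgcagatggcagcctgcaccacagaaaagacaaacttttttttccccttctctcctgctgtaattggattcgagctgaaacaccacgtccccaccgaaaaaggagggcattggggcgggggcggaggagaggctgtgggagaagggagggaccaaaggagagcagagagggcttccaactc

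The AP-1 motif searched was TGAGTCA or TGACTCA, which are each other's reverse complement, so that both strands were covered. Mmp13 held 1 match beginning 35 bases before the start site, Mmp3 held 1 at 46 bases before it, and Mmp10 held 1 at 63 bases before it. Of 32817 promoter windows of this length, 1708 (5.2%) held the motif. RefSeq windows were matched for 7 of the 10 members, and the motif was found in the 3 from chromosome 9 and in none of the other 4 (Mmp11, Mmp14, Mmp15 and Mmp23). Of the cluster genes that are not members, Mmp12 held it in 1 of 2 windows and Mmp8 did not hold it. The windows of Mmp13, Mmp3 and Mmp10 also held the letters TATAAA (searched on both strands as TATAAA or TTTATA, in 13.6% of all windows). These began 16, 7 and 29 bases before the start site. All distances rest on the RefSeq start sites. Mmp11, Mmp14 and Mmp15 held a GC box (GGGCGG or CCGCCC, in 35.6% of all windows), as did 1 of the 2 Mmp23 windows. No match of one motif overlapped a match of another. The chromosome 9 windows were 37.7% to 43.7% G and C with 1 or 2 CpG sites, and the others 56.0% to 67.0% with 10 to 23, where the median over all windows was 52.7% and 7. The transcripts of the 3 chromosome 9 members are alike, with 67.5% to 81.8% identical bases where aligned, so their matches need not be independent. These matches describe letters only and were not tested for binding.

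By level per length, Mmp14 stood clear of all other members in 5 of 6 libraries. Mmp14, which encodes a membrane-anchored activator of pro-Mmp2 and collagenase, had a median of 72.5 FPKM and ranged from 53.3 to 92.2. Mmp2 followed with a median of 14.2 FPKM (5.69 to 30.7), then Mmp15, a second membrane-type enzyme, with 9.22 (6.55 to 13.2) and Mmp11, which furin activates inside the cell, with 6.66 (3.99 to 14.5). Below these stood Mmp10 with a median of 4.18 FPKM, Mmp3 with 4.16 and Mmp13 with 3.00, then Mmp23 with 1.84, Mmp19 with 0.895 and Mmp9 with 0.187. The ranges of Mmp14 and Mmp2 did not overlap, while every other pair of neighbours in this order overlapped. The order of Mmp2 and Mmp15, of Mmp10 and Mmp3, and of Mmp13 and Mmp23 was the reverse in 3 of 6 libraries. The FPKM of each of the 10 genes rests on the length of its longest protein-coding transcript in the GENCODE annotation.

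**Figure D1:**
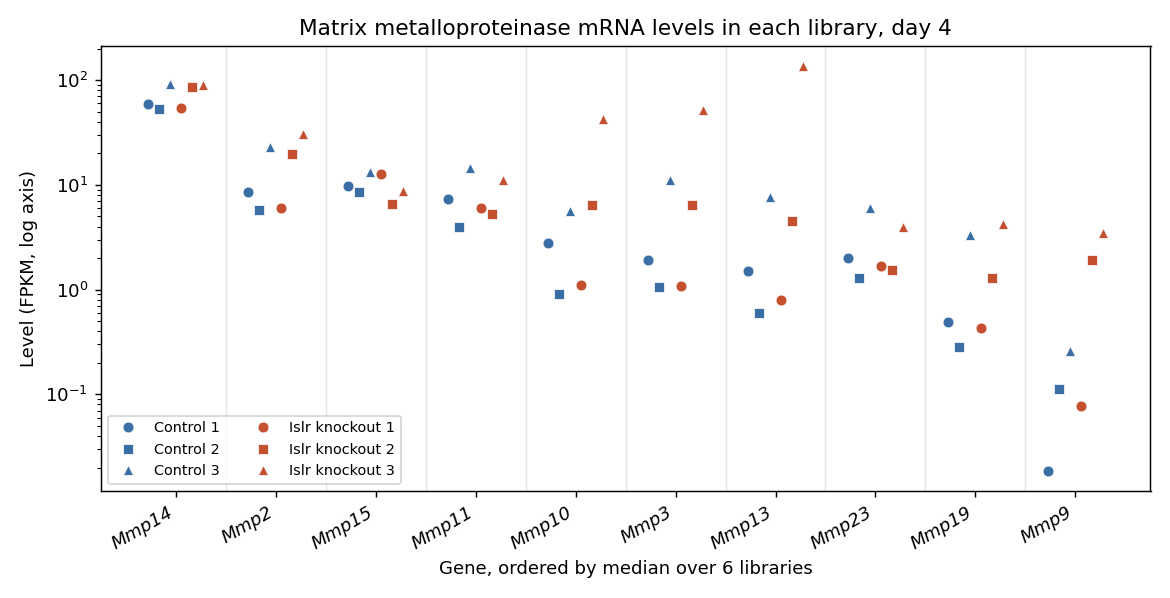
Levels of the 10 Mmp genes (FPKM, log axis) in the 3 control (blue) and 3 Islr knockout (red) libraries, 1 point per library and marker shape by replicate number, ordered by median. Mmp14 keeps within 53.3 to 92.2 FPKM, while Mmp13 runs from 0.602 to 135.8.

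The make-up of the family differed from library to library, and in Islr knockout 3 Mmp14 was not the leading member. Summed over the 10 members, the level was 93.7, 75.8 and 176.5 FPKM in control 1, 2 and 3, and 83.5, 139.0 and 382.1 in Islr knockout 1, 2 and 3. Islr knockout 3 and control 3 were thus highest, control 2 and both libraries of number 1 lowest, and the groups overlapped. Mmp14 supplied 63.4%, 70.3% and 52.2% of the control sums and 64.2% and 61.5% of those of Islr knockout 1 and 2, but 23.3% in Islr knockout 3. There Mmp13 led with 35.5%, against 0.794% to 4.34% in the other libraries. The 10 genes took 97.1% to 99.1% of the FPKM of all 21 Mmp genes in each library, and 0.0252% to 0.102% of all reads. In bulk RNA, fewer cells of a type and less RNA per cell cannot be told apart.

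**Figure D2:**
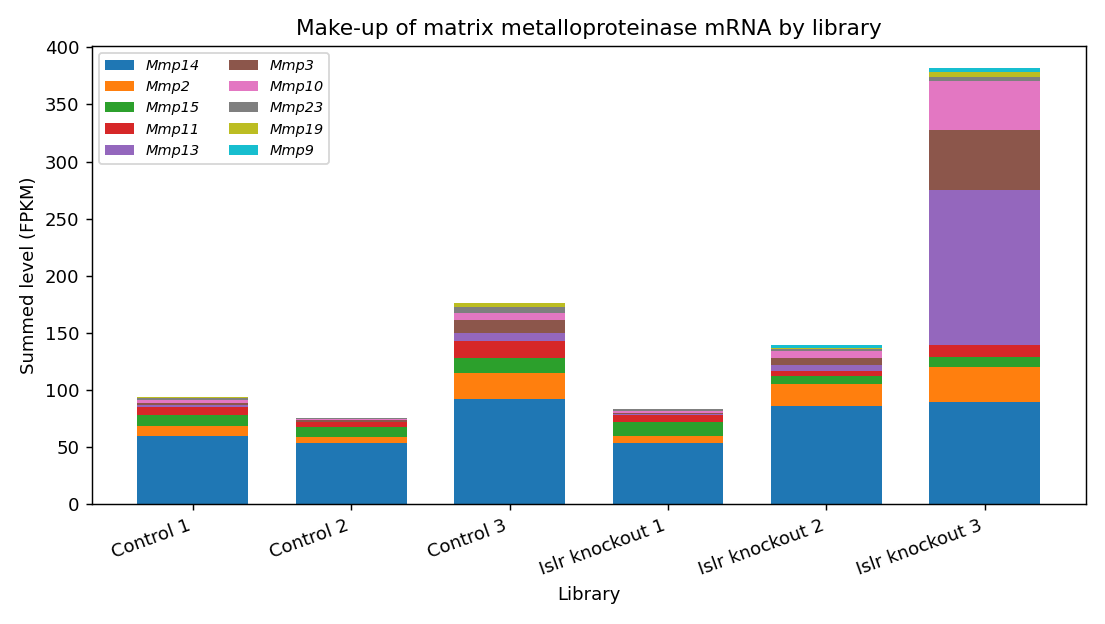
Summed FPKM of the 10 members in each library, stacked by gene, 1 bar per library. The Mmp14 segment is of similar height throughout, and Mmp13, Mmp3 and Mmp10 make up most of the excess in Islr knockout 3.

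The collagenase gene Mmp13 (ENSMUSG00000050578; 9:7272514-7283331 on GRCm38, plus strand) varied the most of the members. It stood at 75.5, 31.5 and 358.0 scaled reads in control 1, 2 and 3, and at 39.9, 219.6 and 6116 in Islr knockout 1, 2 and 3. The last value rests on 7307 reads and is 17.1 times that of control 3, the next highest library. Within the pairs of the same number, the log2 difference of knockout from control was -0.90, 2.76 and 4.09. The mean difference was 1.98 ± 2.07 (SE of the limma fit, 3 against 3 libraries). The SE here and below is moderated: limma draws the variance of each gene toward that of genes of similar level. It can therefore understate the spread of these libraries. The mean difference was -0.02 without Islr knockout 3, 1.20 without control 2, 2.93 without control 3 and 3.59 without Islr knockout 1.

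Mmp3 and Mmp10, for stromelysins that cut proteoglycans, laminin and fibronectin and activate other pro-Mmp enzymes, were also highest in Islr knockout 3. Mmp3 (ENSMUSG00000043613; 9:7445822-7455975, plus strand) stood at 64.4, 37.3 and 350.3 scaled reads in control 1, 2 and 3, and at 36.5, 211.3 and 1589 in Islr knockout 1, 2 and 3. Mmp10 (ENSMUSG00000047562; 9:7502352-7510240, plus strand) stood at 88.9, 30.3 and 168.8 in the controls, and at 35.4, 202.0 and 1239 in the knockouts. For both genes Islr knockout 1 and control 2 were the lowest libraries, and the groups overlapped. The knockout library was 5.67-fold (Mmp3) and 6.67-fold (Mmp10) above the control in number 2, and 4.54-fold and 7.34-fold above it in number 3. In number 1 the control was the higher library, 1.77-fold for Mmp3 and 2.51-fold for Mmp10. The mean log2 differences were 1.28 ± 1.53 (SE) for Mmp3 and 1.42 ± 1.33 (SE) for Mmp10, and came to -0.10 and 0.14 without Islr knockout 3, and to 0.62 and 0.76 without control 2. They were 2.60 and 2.68 without Islr knockout 1, and 2.22 for Mmp3 without control 3.

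The transcripts of Mmp3 and Mmp10 are alike, with 81.8% identical bases over 1366 aligned. Of the 1673 stretches of 50 bases in the Mmp10 transcript, 140 (8.37%) also occur in Mmp3, so some reads could be split or dropped between them, depending on the read length, which the sources used here do not give. Mmp13 shares no such stretch with another gene. Identity was 67.5% between Mmp3 and Mmp13.

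Over the 6 libraries, the log2 levels of Mmp3, Mmp10 and Mmp13 correlated with each other at Pearson r of 0.97 to 0.98. The points share library depth and pairing, are not independent, and Islr knockout 3 sits far from the rest, so this is a description of these libraries. The 3 genes lie in a cluster of Mmp genes on chromosome 9, from 7272514 to 7581885 (309 kb), of which 8 have a row. Mmp12, a macrophage elastase gene between Mmp13 and Mmp3, stood at 7.8, 4.7 and 46.9 scaled reads in the controls and at 1.1, 46.1 and 142.3 in the knockouts. Mmp8, a neutrophil collagenase gene, stood at 0, 0 and 4.3 against 0, 0.9 and 17.6. Of the remaining cluster genes, Mmp1b had 4 reads and Mmp27 had 1, in Islr knockout 3 only, and Mmp1a had 2 in control 3 only. Islr knockout 3 was thus the highest library for every cluster gene except Mmp1a.

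The nearest neighbours of the cluster with a mean of at least 10 scaled reads did not all show this order. Dcun1d5, which adjoins it on the Mmp13 side, was lowest in Islr knockout 3, at 1468 against 1586 to 2033 in the other 5 libraries. Tmem123, which adjoins it on the other side, stood at 1482 in Islr knockout 3, within the range of 1403 to 2137 of the others. The next gene out on each side was also within the range of the others in Islr knockout 3. Dync2h1, on the Mmp13 side, stood there at 202.5 (others 114.2 to 344.5), and Birc2 at 290.4 (others 179.5 to 394.6). Birc3, an inhibitor of apoptosis gene farther out on that side, was highest in Islr knockout 3, at 194.2 against 38.8 to 101.4. Pdgfd, a growth factor gene farther out on the Mmp13 side, was highest there too, at 149.0 against 13.7 to 89.5.

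**Figure D3:**
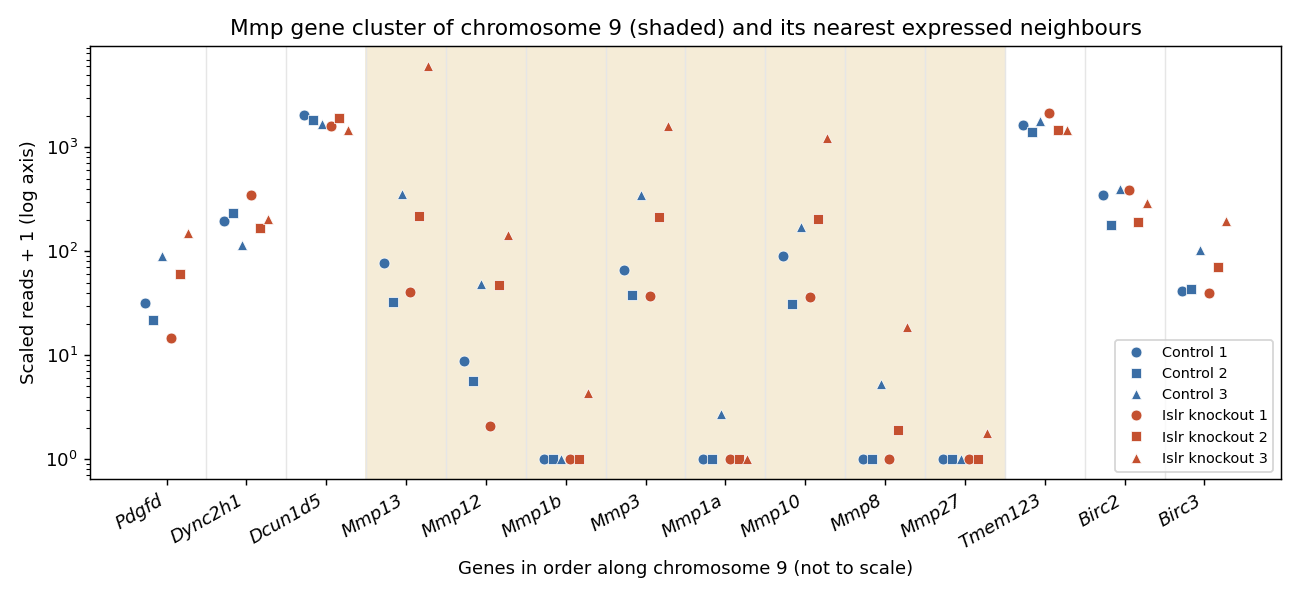
Scaled reads + 1 (log axis) of the chromosome 9 Mmp genes (shaded) and the 3 nearest expressed neighbours on each side, in order along the chromosome and 1 point per library (blue control, red Islr knockout, shape by replicate number). Islr knockout 3 is on top for Mmp13, Mmp12, Mmp3, Mmp10 and Mmp8, and is lowest for Dcun1d5.

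Mmp9 was the member with the lowest median level and the only one that was higher in the knockout library of all 3 pairs. This gelatinase, which cuts denatured collagen and type IV collagen of basement membranes (ENSMUSG00000017737; 2:164940780-164955850, plus strand), stood at 1.1, 7.0 and 14.5 scaled reads in control 1, 2 and 3. It stood at 4.6, 112.6 and 187.5 in Islr knockout 1, 2 and 3. Islr knockout 2 and 3 lay above all controls, while Islr knockout 1 lay among them. The knockout was 16.1-fold above the control in number 2 and 12.9-fold in number 3. In number 1 the values are 4 reads against 1, a ratio of 4.11 with an exact 95% counting interval from 0.406 to 202. The mean log2 difference was 2.94 ± 1.37 (moderated SE of limma), or ± 0.60 with the replicate number as a block. The pairs differed by 1.40, 3.83 and 3.61. The mean was 1.98 without Islr knockout 3 and 4.52 without Islr knockout 1. A higher knockout library in all 3 pairs was found for 1 of 10 members and for 12.2% of the 20344 features tested; a lower one in all 3 was found for 0 of 10 and for 12.1%.

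Mmp2, the gelatinase that Mmp14 activates (ENSMUSG00000031740; 8:92827291-92853420, plus strand), was high in control 3, Islr knockout 2 and Islr knockout 3. It stood at 496.6, 342.6 and 1226 scaled reads in control 1, 2 and 3, and at 344.5, 1114 and 1591 in Islr knockout 1, 2 and 3. The pairs differed by -0.53, 1.70 and 0.38 on the log2 scale, with a mean of 0.52 ± 0.66 (SE). That mean was 0.06, 0.32, 0.12 and 0.39 without Islr knockout 3, Islr knockout 2, control 2 and control 1, and 1.16 and 1.04 without Islr knockout 1 and control 3. Mmp14 (ENSMUSG00000000957; 14:54431612-54445364, plus strand) had the same 3 libraries on top, within a far narrower range. It stood at 3599, 3371 and 5221 in the controls and at 3258, 5076 and 4856 in the knockouts, and its highest library was 1.60 times its lowest. Its mean log2 difference was 0.11 ± 0.29 (SE), and its pairs differed by -0.14, 0.59 and -0.10. The log2 levels of Mmp2 and Mmp14 had a Pearson r of 0.96 over these 6 libraries.

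Mmp15 was the only member that was highest in Islr knockout 1. This membrane-type enzyme (ENSMUSG00000031790; 8:95352268-95375080, plus strand) stood at 931.0, 864.7 and 1189 scaled reads in control 1, 2 and 3, and at 1226, 616.3 and 756.6 in Islr knockout 1, 2 and 3. It was highest in Islr knockout 1 and lowest in Islr knockout 2, with pair differences of 0.40, -0.49 and -0.65 and a mean of -0.25 ± 0.31 (SE). Its correlation with the other 9 members over the libraries was negative for 7 of them, and r ran from -0.66 with Mmp9 to 0.38 with Mmp11.

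Mmp11 and Mmp23 paired with each other (r = 0.98) and were highest in control 3. Mmp11 (ENSMUSG00000000901; 10:75923222-75936496, minus strand) stood at 311.1, 178.3 and 578.7 scaled reads in control 1, 2 and 3, and at 260.1, 218.7 and 426.9 in Islr knockout 1, 2 and 3. Mmp23, for a small membrane-tethered enzyme that lacks the usual cysteine switch (ENSMUSG00000029061; 4:155650655-155653384, minus strand), stood at 53.3, 36.1 and 149.2 against 45.6, 40.6 and 94.6. The 2 mean log2 differences were -0.13 ± 0.46 (SE) and -0.24 ± 0.62 (SE), turned to 0.30 and 0.34 without control 3, and came to -0.55 and -0.66 without control 2. An exon stretch of 155 bases of Mmp11 (5.6%) overlaps Chchd10 on the opposite strand, and since strand handling is not given, reads there cannot be told apart. Chchd10 was also highest in control 3, at 90.0, 43.1 and 165.3 against 73.0, 35.1 and 72.8.

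Mmp19, for a secreted enzyme that cuts basement membrane proteins (ENSMUSG00000025355; 10:128790910-128800824, plus strand), was high in both libraries of number 3. It stood at 31.1, 18.6 and 199.4 scaled reads in control 1, 2 and 3, and at 27.4, 81.2 and 244.4 in Islr knockout 1, 2 and 3. The mean log2 difference was 0.73 ± 1.04 (SE), with pair differences of -0.18, 2.06 and 0.29, and it was -0.06 without Islr knockout 3, 0.05 without control 2, 0.40 without control 1, 1.50 without Islr knockout 1 and 1.73 without control 3. Of its exon bases, 22.3% overlap Tmem198b on the opposite strand, and reads there cannot be told apart. Tmem198b itself ranged only from 128.9 to 194.2 scaled reads.

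**Figure D4:**
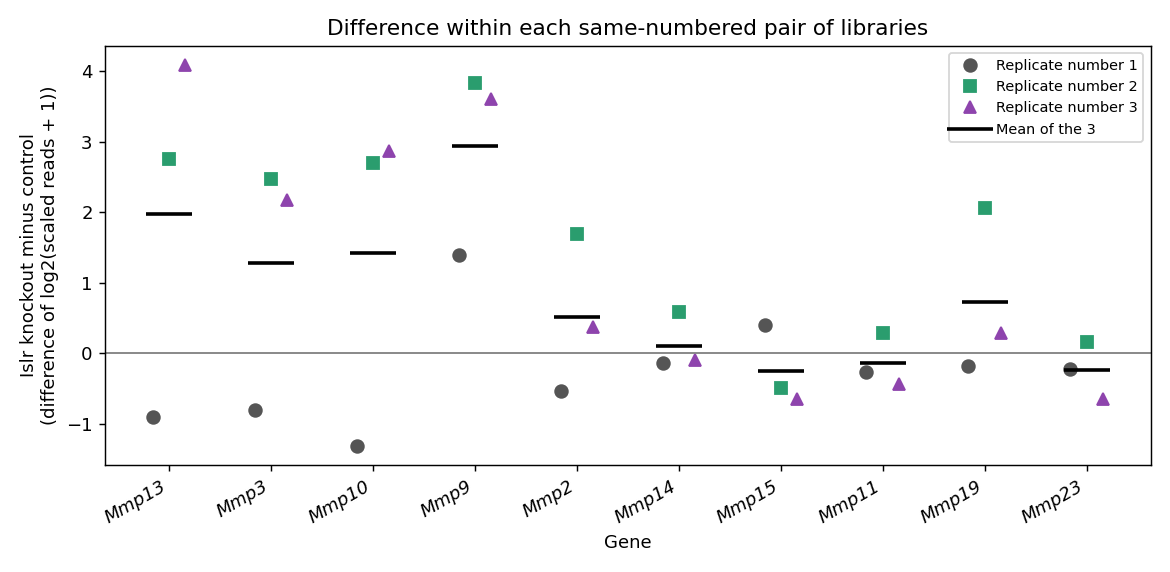
Difference of log2(scaled reads + 1), Islr knockout minus control, within each pair of same-numbered libraries (grey circles 1, green squares 2, purple triangles 3) and the mean of the 3 (black bars). In number 1, 8 of the 10 genes lie below 0, in number 2, 9 lie above it, and Mmp9 lies above 0 in all 3.

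Taken by pair, the family gave 3 different pictures. In number 1 the knockout library was lower for 8 of 10 members, with a median log2 difference of -0.24, where all features tested had a median of 0.02. In number 2 it was higher for 9 of 10, with a median of 1.88 (all features 0.00), and in number 3 for 6 of 10, with a median of 0.33 (all features 0.01). At least 2-fold higher on the log2(value + 1) scale were 1, 6 and 4 members in numbers 1, 2 and 3, where 11.3%, 15.4% and 13.7% of all features were. At least 2-fold lower were 1, 0 and 0, where 8.08%, 8.12% and 10.5% of all features were. Over the 3 pairs together the median of the members was 0.62, against 0.03 for all features. It was -0.04 without Islr knockout 3, 0.09 without control 2 and 1.38 without control 3. Without Islr knockout 1, the library that goes against its label, it was 1.33, and without both libraries of number 1 it was 1.11.

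No member had groups that did not overlap, where 2.65% of all features were higher in all 3 knockout libraries than in any control and 2.11% lower. In the limma fit across 20344 features 0 of 10 members and 0% of all features passed an adjusted p under 0.05, with 0 members and 276 features (1.36%) at an unadjusted p under 0.05. A limma fit with replicate number as block also called 0 members and 0% of features, with 1 member (Mmp9) and 4.59% of features at an unadjusted p under 0.05. DESeq2 with that block called 13 features (0.0997%), of which Mmp9 was 1. With the block and without number 1, a fit chosen after seeing the data, limma called 93 features (0.462%), and Mmp3, Mmp9, Mmp10 and Mmp13 were among them. As the members were chosen with this comparison known, these calls are no support for a difference. The authors' deposited table lists a log2 fold change of 3.74 for Mmp9 with an adjusted p of 0.9998, and 3.78 for Mmp13 with no p-value.

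Differences between the replicate numbers were tested with the group in the model, in a limma F test adjusted over all features. Of the 10 members 2 were called, Mmp9 and Mmp19, where 6.35% of all features were. The members were chosen on the same libraries paired by these numbers, so this too is a description and supports nothing. Mmp9 averaged 2.84, 59.8 and 101.0 scaled reads over the 2 libraries of numbers 1, 2 and 3, and Mmp19 averaged 29.2, 49.9 and 221.9. With genes of a mean of at least 10, limma called neither (5.57% of features called). edgeR on recovered reads (3.62%) and limma with a pseudocount of 0.1 (2.78%) called Mmp9 alone. Without a filter limma called Mmp9, Mmp11, Mmp19 and Mmp23 (12.1%), and with library size alone it called Mmp9, Mmp11 and Mmp19 (6.81%). The labels do not say what a number marks.

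Among the 11 Mmp genes outside the list, Mmp17 was the most abundant. This gene for an enzyme tethered by a lipid anchor averaged 1.40 FPKM, above the 0.985 of Mmp9 on the list, and stood at 78.9, 125.9 and 76.7 scaled reads in the controls and 74.2, 321.1 and 291.3 in the knockouts. Mmp16, a membrane-type enzyme gene, stood at 3.3, 12.8 and 10.2 against 2.3, 45.2 and 31.0. Mmp28 stood at 4.4, 7.0 and 32.4 against 6.8, 19.4 and 31.8, high in both libraries of number 3. Mmp24 stayed at or below 4.3, Mmp25 at or below 1.7, and Mmp21 had 1 read in all. Of the 6 of these 11 genes that could be tested, limma called 0 (0 at an unadjusted p under 0.05), with a log2 difference of 1.06 ± 0.58 (SE) for Mmp17. In numbers 2 and 3 the knockout library was the higher one for Mmp12, Mmp16 and Mmp17, as for Mmp2, Mmp3, Mmp10, Mmp13 and Mmp19. In number 1 it was the lower one for all of these. There Mmp12 had 1 read in the knockout against 7 in the control, and Mmp16 had 2 against 3. The log2 difference in number 1 was only -0.09 for Mmp17 and -0.18 for Mmp19.

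Of 42 partner genes (inhibitors, activating proteases, inducing ligands, transcription factors and substrates), limma called 0 in either direction, with 6 at an unadjusted p under 0.05, where 1.36% of all features were. Counts of 0 were also found by edgeR and DESeq2 without a block, while DESeq2 with the replicate block called 2, Fn1 and Lif. The median log2 difference was 0.55, and 36 of 42 lay on the higher side in the knockout libraries. All features had a median of 0.03, and 53% lay on that side. In numbers 1, 2 and 3 the knockout library was higher for 25, 31 and 34 of the 42. The medians were 0.15, 0.54 and 1.09. Groups did not overlap for 6 of the 42, all higher in the knockout libraries, where 2.65% of all features were. The list was drawn up with earlier results of these data known, so these counts are a description and support nothing. Among 5 inhibitors, Timp3 stood at 222.2, 228.4 and 210.5 scaled reads in the controls and 326.3, 613.5 and 494.6 in the knockouts (log2 difference 1.07 ± 0.31 SE, limma adjusted p = 1.0). Timp1 stood at 13965, 4226 and 5222 against 9624, 12074 and 15078, with overlapping groups. The membrane-bound inhibitor Reck stood at 31.1, 71.1 and 79.3 against 58.2, 97.8 and 121.4. Between replicate numbers 3 of the 42 differed in the limma F test, Timp2 (adjusted p = 0.0317), Il1b (0.0316) and Il6 (0.0324), where 6.35% of all features did.

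Among 8 genes of activation, Plau, which encodes the urokinase that makes plasmin, stood at 7459, 2340 and 2739 scaled reads in the controls and 6925, 5344 and 7970 in the knockouts. The proprotein convertase gene Pcsk6 stood at 190.0, 240.1 and 98.0 against 227.0, 296.1 and 211.8, and plasminogen itself (Plg) stayed at or below 3.4. Among 9 ligands and cofactors, Fgf2 stood at 484.4, 171.3 and 161.9 against 503.1, 855.2 and 662.9 (log2 difference 1.46 ± 0.45 SE, limma adjusted p = 1.0). It was higher in every knockout library than in any control, which held for 2 of these 9 genes and for 2.65% of all features. In number 1 its log2 difference was only 0.05. The cytokine gene Lif stood at 392.2, 50.1 and 217.3 against 441.5, 439.1 and 1670. Il6 ran highest in both libraries of number 3, at 174.7 and 440.2, and lay between 4.6 and 35.1 in the other 4. Il1b, a strong inducer of Mmp transcription, stood at 83.3, 11.7 and 40.1 against 53.6, 4.6 and 22.6.

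Among 10 AP-1 and ETS genes, Fosl2 stood at 1471, 805.2 and 1695 scaled reads in the controls and 1832, 1543 and 3187 in the knockouts, highest in Islr knockout 3. Fosb stood at 231.1, 87.4 and 17.9 against 287.5, 219.6 and 152.3, and was higher in the knockout library of each pair. Fos stood at 96.7, 31.5 and 97.2 against 110.7, 109.8 and 139.8 (log2 difference 0.83 ± 0.51 SE, limma adjusted p = 1.0). Its groups did not overlap, which held for 1 of these 10 genes, where 2.65% of all features were higher without overlap. By mean log2 difference 8 of the 10 lay on the higher side. Jun, at 3896, 4312 and 3101 against 3966, 3428 and 2790, lay on the lower side (-0.15). So did Jund (-0.34), at 377.7, 223.7 and 750.0 against 241.9, 320.1 and 405.9. Among 10 substrates and docking partners, Fn1 stood at 23495, 25255 and 17310 against 43548, 44271 and 65845. The integrin subunit gene Itgb3 stood at 589.9, 419.5 and 435.5 against 523.7, 1460 and 1276. RNA levels say nothing of how much active enzyme was present.

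Markers of other cell types moved with some of these values, and their part in them was not tested. The 6 macrophage markers (Ptprc, Adgre1, Csf1r, Cd68, Lyz2 and Mrc1) summed to 191.1, 153.8 and 322.2 scaled reads in the controls and 106.1, 478.8 and 926.5 in the knockouts. They were higher in the knockout library for 2, 5 and 6 of 6 in numbers 1, 2 and 3. Ptprc, which marks all leukocytes, was at 0 in the 3 controls and in Islr knockout 2, and had 1 read in Islr knockout 1 and 12 in Islr knockout 3. Lyz2, a lysozyme gene of myeloid cells, stood at 104.4, 102.5 and 223.3 against 44.5, 361.7 and 603.5, so that it was highest in Islr knockout 2 and 3. Adgre1 and Cd68 were also highest there, while Ptprc, Csf1r and Mrc1 did not share this order. It was not particular to macrophage markers. Of the endothelial markers, Pecam1, Cdh5, Cldn5, Tek and Emcn were highest in Islr knockout 2 and 3, and Kdr was not.

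The neutrophil list had a row for 4 of its 6 genes, which summed to 0, 0 and 12.8 scaled reads in the controls and 1.1, 4.6 and 152.3 in the knockouts. In Islr knockout 3 these were mostly S100a8 (120.5) and Ly6g (29.3), while Csf3r and Mpo stayed at or below 1.7 in all libraries. The 8 fibroblast and fibro-adipogenic markers summed to 6929, 5294 and 10194 against 6500, 10009 and 12087, higher in the knockout library for 2, 7 and 5 of 8. The largest part of each sum was Col3a1, at 5046, 4092 and 7422 against 4616, 5449 and 6379, with a mean log2 difference of 0.02. Among the others Dpt stayed at or below 4.4 and Pi16 at or below 3.4. Dcn, a proteoglycan gene, stood at 152.2, 65.3 and 478.1 against 103.8, 370.9 and 1389. The 6 endothelial markers summed to 305.5, 617.6 and 420.2 against 310.3, 1388 and 1255, higher in the knockout library for 5, 6 and 6 of 6. The 6 markers of muscle differentiation summed to 334416, 2748 and 145919 against 315497, 10128 and 30544. Myog, which switches on differentiation, stood at 43370, 417.2 and 43261 against 37228, 1998 and 5737, and Pax7, the satellite cell factor, at 1233, 2729 and 1634 against 1558, 1667 and 1319.

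**Figure D5:**
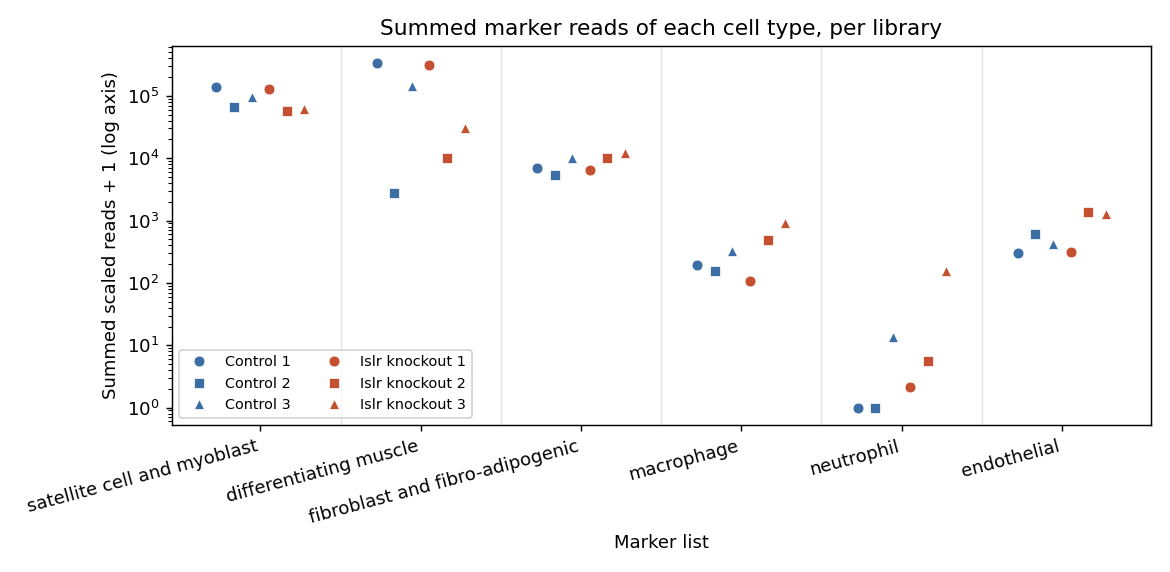
Summed scaled reads + 1 (log axis) of 6 marker lists, 1 point per library (blue control, red Islr knockout, shape by replicate number). Macrophage and neutrophil sums are highest in Islr knockout 3 (926.5 and 152.3), and the differentiation sum is lowest in control 2 (2748).

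Of 14280 genes with a mean of at least 10, those most like a member over the 6 libraries were named by Pearson r of log2 levels. With 6 libraries such values are high for many genes and say nothing of shared control. Mmp3 was closest to Ifitm3 (r = 0.997), an interferon-induced gene at 1345, 904.3 and 4961 scaled reads in the controls and 880.8, 3177 and 11441 in the knockouts, and then to Ndfip1 (0.997). Mmp13 was closest to Slc18a1 (0.997) and the metallothionein gene Mt3 (0.992), Mmp10 to Chic2 (0.995) and Pon2 (0.994), and Mmp9 to Ext1 (0.996) and Arap3 (0.993). Mmp2 was closest to Cyp2j6 (0.997) and Cck (0.996), Mmp14 to Galt (0.993) and Pmm1 (0.989), and Mmp19 to Fbxo25 (0.998) and Espn (0.998). Mmp15 was closest to Acsl1 (0.997) and Rtkn2 (0.991), Mmp11 to Vps26c (0.996) and Snx32 (0.993), and Mmp23 to Sirt2 (0.996) and As3mt (0.994).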

How the data were processed

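The main table was deposited as a signal scale: from its values, the authors' reads per gene were divided by a size factor of the library. It also holds FPKM deposited by the authors and, per the file headers, the log2 fold change and p-value of their own comparison, raw and adjusted. A second deposited table holds raw counts. The submitters' processing notes list HISAT2 2.0.5, Trimmomatic, DESeq2 1.16.1, HTSeq and edgeR 3.18.1 without saying what each did; annotation, build and strand handling were not found in the labels or headers. Coordinates are as in the table, and 26940 of 27065 genes matched GENCODE on GRCm38 exactly, all 10 members among them. From the table, 36 damaged lines were dropped. Reads were recovered from the step of each column (100.0% of values whole within 0.01), and all 480 genes shared with the deposited raw counts were identical. The FPKM columns of the raw count table, 6 in number, were left out.

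Tests used limma 3.58.1 (trend, robust) on log2(scaled reads + 1) over features averaging 1 or more, with two-sided p-values adjusted by Benjamini-Hochberg and a threshold of 0.05. The script was run on simulated counts that held no difference between replicate numbers, so that run does not show how the fit performs on these libraries. The log2(value + 1) scale understates changes of low genes. edgeR 4.0.16 (quasi-likelihood) and DESeq2 1.42.0 on recovered reads were alternatives. The replicate numbers were taken as pairing the libraries, since deviations from the group means correlated at 0.689, 0.633 and 0.625 within numbers; this comes from the data, not the labels. Members and lists were chosen with earlier results of these data known. The text names all members, the other Mmp genes with reads, the 2 partner genes per role with the smallest p and the 2 genes most like each member. Reck, Plg, Il6, Il1b, Fos, Jun, Jund, Timp2, Chchd10, Tmem198b, Lyz2, Dcn, Col3a1 and the cluster's neighbours were added after their values were seen. So was the order of single macrophage and endothelial markers. Intervals cover counting error only.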

Additional observations from a re-analysis of the deposited data

How the results depend on the processing

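The median log2 difference over the 10 members lay between 0.53 and 0.67 under other pseudocounts, filters, scalings and tools. Single members depended more on the tool. Without the block, Mmp13 was 1.98 in limma, 3.76 in edgeR and 3.78 in DESeq2, and Mmp9 was 2.94, 3.71 and 3.74. Mmp3 was 1.28, 2.01 and 2.02, and Mmp10 was 1.42, 2.34 and 2.36, while Mmp19 was lower in the count tools, at 0.73, 0.49 and 0.50. When 1 library was left out it ran from -0.04 to 1.38, and with the replicate block and without both libraries of number 1, 2 or 3, an alternative chosen after seeing the data, it was 1.11, -0.01 and 0.64. No scaling turned the sign of a member, and Mmp9, Mmp10 and Mmp15 kept theirs in every fit run; 11 values of the other 7 turned, all with libraries left out. The count of features called between the groups was 0 in limma, with and without the replicate block, in edgeR, in DESeq2 without the block and in each fit that left out 1 library. It was 13 in DESeq2 with the replicate block and 93 in limma with the block and without number 1, and the count of partner genes called was 2 and 4 there. The fit without number 1 was run only with the block, so the part of the block in its calls was not tested. Of the tools run both ways on all libraries, only DESeq2 gave another count of calls with the block. The count of features that differed between replicate numbers was 1291, and came to 566 with a pseudocount of 0.1, 3309 without a filter, 795 with a mean of at least 10, and 514 in edgeR; the cause was not tested. Depth limits Mmp9, with 1 to 17 reads in the controls. Zero members had groups that did not overlap under each of the 3 other scalings.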
